A study of Mus musculus with 12 samples.

Results

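The genes described here encode the extracellular matrix: every measured collagen chain and laminin chain, and 10 further matrix genes, namely the nidogens Nid1 and Nid2, the perlecan core protein Hspg2, fibronectin (Fn1), Sparc, the small leucine-rich proteoglycans Dcn, Lum and Bgn, and the metalloprotease inhibitors Timp2 and Timp3. They were chosen by symbol alone, and 57 of the 14881 genes of the count table belong to them: 36 collagen chains, 11 laminin chains and the 10 others. The symbols Col10a1, Col17a1, Col24a1, Col28a1, Col4a3, Col4a4, Col6a6 and Col9a1 also match and were not analysed here.

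Per the labels, the RNA was of 12 APPswe mice, all male and aged 22 to 26 months, a line with an amyloid precursor protein transgene that is named for all groups. An adeno-associated virus of serotype AAV1 (5 µL) was injected into the cisterna magna, with the ubiquitous CMV promoter driving either eGFP (control) or mVEGF-C, which drives growth of lymphatic vessels. Weekly intraperitoneal doses of 40 mg/kg followed, of either mIgG (control immunoglobulin) or mAducanumab (mAdu), an antibody against amyloid beta. Mice 1 to 3 were given the eGFP vector and mIgG (eGFP+mIgG), mice 4 to 6 the same vector and the antibody (eGFP+mAdu), mice 7 to 9 the growth factor vector and mIgG (mVEGF-C+mIgG), and mice 10 to 12 both active agents (mVEGF-C+mAdu). The labels list 1 library per animal, and libraries held 23213612 to 29295266 counted reads. The series title frames the question as how lymphatic vessels of the meninges bear on immunotherapy. As tissue, the series description names the right hippocampus, whereas the source label has brain meninges.

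The brain holds little fibrillar collagen between its cells. Sheets of type IV collagen, laminin, nidogen and perlecan form the basement membranes of blood vessels and of the brain surface, made by endothelial cells, pericytes, astrocytes and fibroblasts. Fibrillar collagens and small leucine-rich proteoglycans are products mainly of fibroblasts of the meninges and of the spaces around larger vessels, while a few collagens, among them Col25a1, are made by neurons.

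Some facts of the libraries bear on every value. Slc17a7, the vesicular glutamate transporter of hippocampal excitatory neurons, stood between 746 and 851 CPM (counts per 1000000 scaled reads) in all 12 libraries, and Prox1, a marker of dentate granule cells, between 41.0 and 57.9 CPM. App, the gene the transgene is made from, was low in mice 5 (1340 CPM) and 6 (3720 CPM), and the remaining 10 libraries held 4720 to 5510 CPM, so whether these 2 mice carry the transgene could not be settled here. Vegfc was not higher with the mVEGF-C vector, at 3.41 ± 0.188, 3.29 ± 0.188, 2.71 ± 0.825 and 2.98 ± 0.407 CPM (SD, n = 3) in the group order given above, and the vector was delivered outside the hippocampus. Mice 3, 6, 9 and 12 each lay between the other 2 mice of their group for 45.0% to 49.8% of all genes, and for 39, 33, 27 and 27 of the 57 matrix genes, and whether these libraries are independent mice could not be settled. Where n = 3 or 6 against 6 is given below, it counts libraries as labelled, and p-values measure the spread between them. Results are therefore also given without mice 5 and 6 and without mice 3, 6, 9 and 12 where that changed a call.

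Levels are compared between genes as CPM per kb of exon, and between libraries as CPM. The exon length is the union of all annotated exons of a gene over its isoforms. Levels per kb and ratios between genes are therefore approximate and partly reflect the annotation. The RNA was linearly amplified, and how evenly reads covered each transcript was not measured. Sparc, a secreted glycoprotein that binds collagen, stood highest at 34.9 ± 1.60 CPM per kb (SD over the 12 libraries), followed by Timp2 at 32.8 and Dcn (decorin) at 11.1 CPM per kb. Timp3 (9.24) and Col25a1 (8.12) came next, and then a group of basement membrane chains: Lamb1 at 4.59, Lamb2 at 4.22, Col4a1 at 4.00, Col4a2 at 3.99 and Lamc1 at 3.55 CPM per kb. Fibrillar collagens stood lower, with Col1a2 at 0.844, Col1a1 at 0.613 and Col3a1 at 0.231 CPM per kb, apart from Col11a2 at 3.61. The lowest was Col7a1, the collagen of anchoring fibrils, at 0.115 CPM per kb. In 29 of the 57 genes the mean stayed under 5 CPM, and single counts ran from 3 reads (Col6a4, mouse 1) to 4135 reads (Timp2, mouse 4). The highest library exceeded the lowest by more than 2 times in 18 of the 57 genes.

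**Figure D1:**
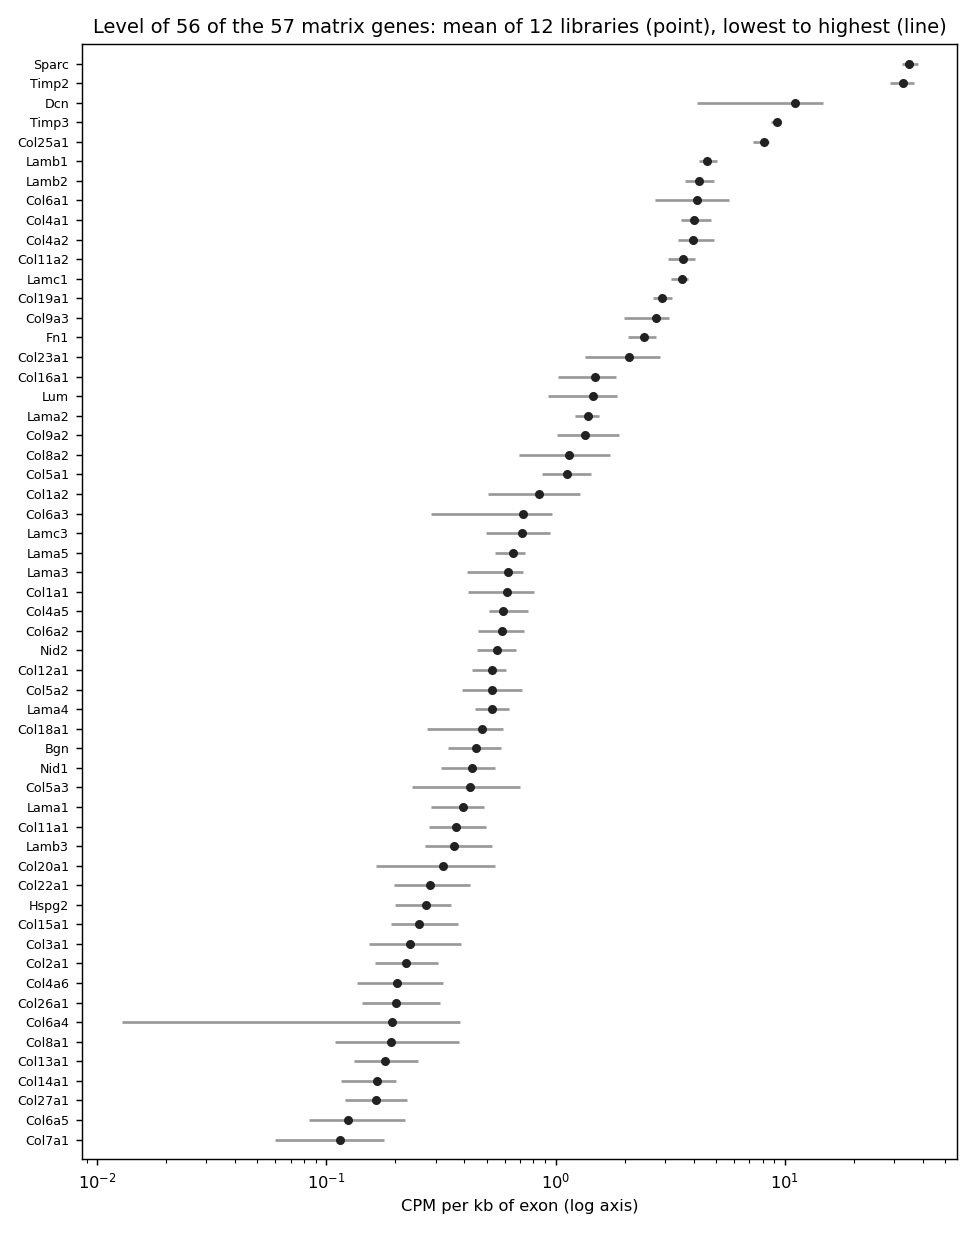
Level of 56 of the 57 matrix genes in CPM per kb of exon on a log axis, with the mean of 12 libraries as a point and the lowest to highest library as a line. Sparc (34.9) and Timp2 (32.8) stand highest, and Col6a4 has the widest range.

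The mVEGF-C vector was compared with the eGFP vector over both antibodies, 6 mice against 6. Timp2 and Col23a1 fell, 2 of the 57 genes, beside 0.39% of all genes called in that comparison in either direction. Both passed the quasi-likelihood test of edgeR, adjusted by Benjamini-Hochberg over all 14881 genes, at 0.05, the threshold used for every call below. Without that adjustment, 27 of the 57 (47.4%) were lower at p under 0.05 and 0 higher, where 7.54% of all genes were lower. The fitted log2 change was below zero in 50 of the 57, with a median of -0.17, against 7562 of 14881 genes and a median of -0.00 over all genes. The 57 genes are made by overlapping sets of cells and are not independent of each other, so these counts describe the list and do not test it. Leaving out mouse 1, 3, 4, 6, 9 or 12 left 0 of the 57 called, without mouse 10 only Timp2 passed, and without mouse 5 or mouse 7 there were 5 genes called. Calls over all genes, 58 with every mouse, moved in the same way. They were 17, 9, 14, 5, 4 and 9 without mouse 1, 3, 4, 6, 9 and 12. Without mouse 10 they were 35, and without mouse 5 and 7 they were 188 and 253.

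Timp2 encodes a secreted inhibitor of matrix metalloproteases and lies on the minus strand at chr11:118301069-118355740 (GRCm38). It stood at 137, 128 and 137 CPM in mice 1 to 3, at 143, 130 and 139 in mice 4 to 6, at 112, 119 and 114 in mice 7 to 9, and at 125, 126 and 122 in mice 10 to 12. All 6 mVEGF-C mice lay below all 6 eGFP mice. The log2 change was -0.18 (SE 0.031), adjusted p = 0.0192 in the quasi-likelihood test of edgeR. Its near relative Timp3, also a metalloprotease inhibitor and one that binds the matrix, stood between 70.9 and 78.2 CPM in every library, with a log2 change of -0.03 (SE 0.032) that did not pass. Timp3 lies inside Syn3 on the opposite strand, and its count may include reads of Syn3, because the use of strand in counting is not given in the sources used here.

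Col23a1 encodes a collagen that spans the cell membrane and lies on the plus strand at chr11:51289920-51583918. Mice 1 to 3 held 16.4, 12.4 and 13.3 CPM, mice 4 to 6 held 15.8, 12.1 and 15.5, mice 7 to 9 held 10.9, 9.26 and 9.68, and mice 10 to 12 held 7.72, 11.4 and 9.98. Again no mVEGF-C mouse reached the lowest eGFP mouse. The log2 change was -0.54 (SE 0.099), adjusted p = 0.0295 in the quasi-likelihood test of edgeR. Of the other measured membrane collagens, Col13a1 was fitted at -0.41 (SE 0.164) and Col25a1, a neuronal collagen that binds amyloid deposits, at 0.04 (SE 0.034). Neither passed. Col25a1 stood at 93.9 to 111 CPM, and mouse 2 was its lowest library.

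The windows around the RefSeq start sites of Timp2 and Col23a1 (250 bases before to 50 after, GRCm38.p6) are shown because these 2 genes carried the calls for the vector. Capitals mark CCAAT or GGGCGG on either strand. The Timp2 window is chr11:118355362-118355661 on the minus strand and the Col23a1 window chr11:51289670-51289969 on the plus strand.
Timp2: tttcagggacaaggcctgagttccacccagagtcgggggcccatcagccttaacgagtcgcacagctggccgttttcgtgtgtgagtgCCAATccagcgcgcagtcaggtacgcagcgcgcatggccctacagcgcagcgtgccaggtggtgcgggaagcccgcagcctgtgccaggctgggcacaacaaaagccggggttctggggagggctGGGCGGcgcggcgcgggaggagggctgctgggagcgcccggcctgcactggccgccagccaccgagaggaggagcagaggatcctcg
Col23a1: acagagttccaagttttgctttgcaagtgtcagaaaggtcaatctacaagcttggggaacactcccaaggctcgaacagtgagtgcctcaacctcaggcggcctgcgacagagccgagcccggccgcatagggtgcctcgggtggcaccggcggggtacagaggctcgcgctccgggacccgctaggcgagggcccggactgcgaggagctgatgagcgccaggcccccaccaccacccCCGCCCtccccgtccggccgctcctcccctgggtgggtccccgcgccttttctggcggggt
Such windows were found for 39 of the 57 genes. GGGCGG, the core of GC boxes, occurred in 74.4% of these 39 and in 67.7% of 11262 genes of the table, CCAAT in 35.9% against 42.6%, TATAAA in 7.69% against 8.88%, and TGANTCA, the core of AP-1 sites, in 2.56% against 6.08%. These matches are descriptions of letters and not of bound factors.

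**Figure D2:**
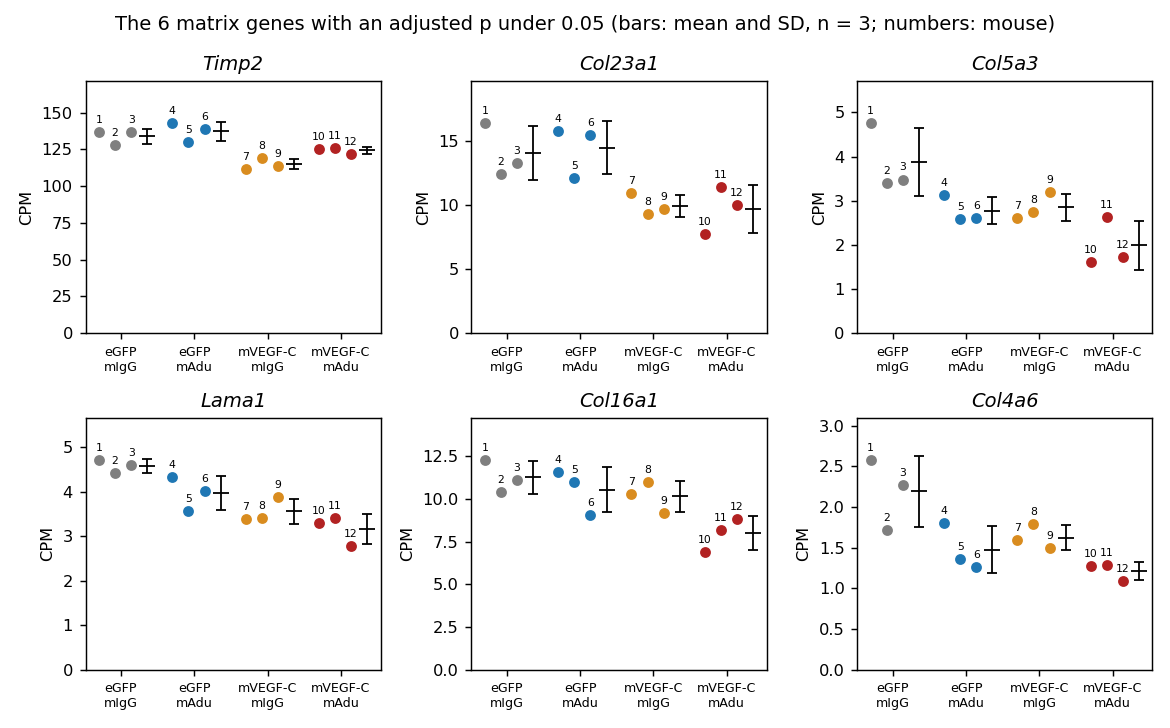
CPM of the 6 matrix genes that passed in any comparison, with 1 point per mouse (numbered) and the mean and SD of each group of 3 beside the points, on axes from 0. Timp2 and Col23a1 separate by vector, and in Col5a3, Lama1, Col16a1 and Col4a6 the mVEGF-C+mAdu mice lie below the eGFP+mIgG mice.

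The group given both treatments, mVEGF-C+mAdu, was compared with the double control eGFP+mIgG, 3 mice against 3. Col5a3, Lama1, Col16a1 and Col4a6 fell, 4 of the 57 genes (7.02%), and none rose, beside 2.18% of all genes called. At an unadjusted p under 0.05, 24 of the 57 (42.1%) were lower and 0 higher, where 10.0% of all genes were lower. The median log2 change of the 57 was -0.27 with 48 below zero, against a median of -0.00 over all genes.

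Col5a3 encodes a chain of type V collagen, which sits within and regulates collagen fibrils, at chr9:20770050-20815067. It stood at 4.76, 3.39 and 3.48 CPM in mice 1 to 3 and at 1.61, 2.63 and 1.73 in mice 10 to 12, with mice 4 to 9 between 2.58 and 3.20. The log2 change was -0.97 (SE 0.191), adjusted p = 0.023 in the quasi-likelihood test of edgeR. The 2 other type V chains, Col5a1 and Col5a2, were fitted at -0.41 (SE 0.119) and -0.23 (SE 0.148) and did not pass.

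Lama1 encodes a laminin alpha chain of the membrane at the brain surface (chr17:67697259-67822647). Its levels were 4.72, 4.42 and 4.61 CPM in mice 1 to 3 against 3.30, 3.40 and 2.78 in mice 10 to 12, and mice 4 to 9 stood between 3.38 and 4.33. The log2 change was -0.54 (SE 0.123), adjusted p = 0.0375 in the quasi-likelihood test of edgeR. Col16a1, a collagen that associates with fibrils (chr4:130047840-130099283), stood at 12.3, 10.4 and 11.1 CPM against 6.91, 8.21 and 8.85. Its log2 change was -0.50 (SE 0.115), with the same adjusted p of 0.0375 in the quasi-likelihood test of edgeR. In both genes the 2 groups did not overlap. For Col16a1 the mice given 1 treatment, mice 4 to 9, stood between 9.05 and 11.6 CPM and overlapped the double control.

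Col4a6 encodes a minor type IV collagen chain of basement membranes and lies at chrX:141165403-141474076. It stood at 2.58, 1.72 and 2.27 CPM in mice 1 to 3 and at 1.27, 1.29 and 1.09 in mice 10 to 12. The log2 change was -0.86 (SE 0.197), adjusted p = 0.0375 in the quasi-likelihood test of edgeR. These calls rested on few mice: with mice 3, 6, 9 and 12 left out, 0 of the 57 genes passed in either comparison described so far, and 2 (combined treatment) and 0 (vector) of all genes did. For the combined treatment 0 of the 57 also passed with trends in GC content and length removed or with mouse 1, 3, 10 or 12 left out. There was 1 without mouse 9 and 2 without mouse 6, but 7 without mouse 4 or 5, 8 without mouse 2, 11 without mouse 8 and 13 without mouse 7. Calls over all genes moved in the same way. They were 77 with those trends removed, 21, 56, 43 and 12 without mouse 1, 3, 10 and 12, and 145 and 123 without mouse 9 and 6. Without mouse 4, 5, 2, 8 and 7 they were 356, 350, 397, 571 and 594.

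Some further genes came close to the threshold for the combined treatment without passing. Among them were Lamb2, Col1a2, Col9a3 and Col23a1, with adjusted p of 0.053, 0.054, 0.0552 and 0.0559 in the quasi-likelihood test of edgeR. All 4 were fitted lower, as were the genes that follow. Col18a1, a multiplexin of basement membranes whose end fragment is endostatin, stood at 4.14, 3.44 and 4.13 CPM in mice 1 to 3, at 4.16, 2.95 and 3.37 in mice 4 to 6, at 3.59, 3.22 and 4.00 in mice 7 to 9, and at 2.57, 2.95 and 1.93 in mice 10 to 12, with a log2 change of -0.66 (SE 0.171, adjusted p = 0.0554 in the quasi-likelihood test of edgeR). Col1a1, the partner of Col1a2 in type I collagen, stood at 5.27, 3.67 and 4.68 CPM in mice 1 to 3, at 4.64, 3.72 and 4.10 in mice 4 to 6, at 4.07, 4.17 and 4.80 in mice 7 to 9, and at 2.73, 3.64 and 2.82 in mice 10 to 12, with a change of -0.58 (SE 0.157, adjusted p = 0.0601). In Col18a1 mouse 11 stood level with mouse 5 and in Col1a1 the mice given both treatments were the lowest 3. Col20a1, a collagen of the same class as Col16a1, stood at 2.69, 1.58 and 2.79 CPM in mice 1 to 3 and at 0.845, 1.46 and 1.33 in mice 10 to 12 (log2 change -0.99, SE 0.265, adjusted p = 0.0596 by the same test of edgeR). Exons of Col20a1 overlap those of BX649560.1, another counted gene on the same strand, so reads of that overlap cannot be assigned by strand.

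The vector was then compared within each antibody, and these 2 comparisons share no library. With mIgG, 0 of the 57 genes passed in edgeR, beside 0.0403% of all genes, and 17 of the 57 (29.8%) had an unadjusted p under 0.05, 16 of them lower, where 7.91% of all genes did. The DESeq2 Wald test called 1 gene, Timp2, beside 0.134% of all genes, and limma-voom with quality weights called 9, all lower, beside 6.3%. With mAdu, 0 passed in edgeR, beside 0.047% of all genes, and 18 (31.6%) were lower and 0 higher at an unadjusted p under 0.05, where 6.81% of all genes were lower. Here DESeq2 called Col1a2, Col23a1 and Col8a2, beside 0.819% of all genes, and limma-voom called 11 genes, all lower, beside 6.52%. Fitted changes were below zero under both antibodies in 43 of the 57 genes (75.4%), as they were in 29.9% of all genes, and above zero under both in 4.

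**Figure D3:**
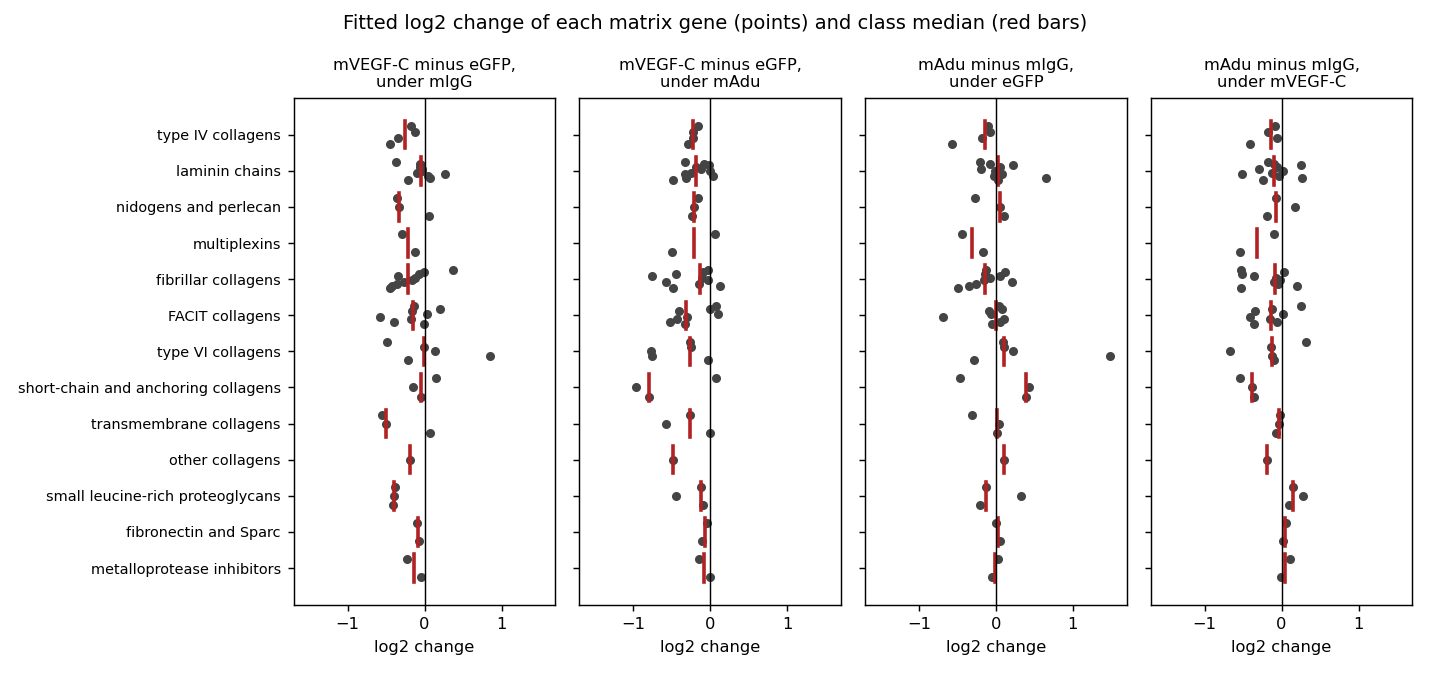
Fitted log2 change of each matrix gene (points) and the median of its class (red bars) for the vector under each antibody and the antibody under each vector. Class medians lie below 0 in all classes for the vector under either antibody, though that of type VI collagens under mIgG is close to 0, and on both sides of 0 for the antibody.

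Among basement membrane genes, all 4 type IV collagen chains had an unadjusted p under 0.05 for the vector over both antibodies, with fitted log2 changes of -0.17 (Col4a1, SE 0.059), -0.17 (Col4a2, SE 0.068), -0.28 (Col4a5, SE 0.089) and -0.37 (Col4a6, SE 0.141). None of the 4 passed the adjusted test in that comparison, where 0.39% of all genes were called and 7.54% were lower at an unadjusted p under 0.05. Col4a1 and Col4a2 form the common trimer of vessel basement membranes. Col4a1 stood at 35.5, 29.6 and 33.1 CPM in mice 1 to 3, at 32.3, 28.0 and 31.2 in mice 4 to 6, at 33.1, 26.3 and 27.7 in mice 7 to 9, and at 26.8, 27.3 and 27.7 in mice 10 to 12. Its range over mice 10 to 12 was the narrowest of the 4 groups, and mouse 7 stood as high as mouse 3. Col4a2 stood at 32.5, 25.8 and 27.8 CPM in mice 1 to 3, at 28.7, 28.0 and 24.8 in mice 4 to 6, at 30.3, 26.0 and 23.0 in mice 7 to 9, and at 23.9, 22.7 and 23.3 in mice 10 to 12. Per kb of exon the 2 chains kept a ratio of 0.89 to 1.12, with a median of 1.01. A ratio in a narrow range was not particular to this pair. Lamb1 over Lamb2 ran from 0.93 to 1.29 and Lamb1 over Lamc1 from 1.12 to 1.47. Wider ranges were seen for Col1a2 over Col1a1 (1.04 to 1.81), Col4a5 over Col4a6 (2.21 to 3.79), Col9a3 over Col9a2 (1.55 to 2.84) and Col6a1 over Col6a2 (4.69 to 10.56).

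Col4a1 and Col4a2 are transcribed away from each other, and their RefSeq windows are shown because these windows overlap. Whether the shared region bears on the ratio of the 2 chains was not tested. Their start sites lie 21 bases apart at chr8:11312805 (Col4a2, plus strand) and chr8:11312826 (Col4a1, minus strand), so that their first 22 bases overlap. The windows are chr8:11312777-11313076 for Col4a1 and chr8:11312555-11312854 for Col4a2, and capitals again mark CCAAT or GGGCGG on either strand.
Col4a1: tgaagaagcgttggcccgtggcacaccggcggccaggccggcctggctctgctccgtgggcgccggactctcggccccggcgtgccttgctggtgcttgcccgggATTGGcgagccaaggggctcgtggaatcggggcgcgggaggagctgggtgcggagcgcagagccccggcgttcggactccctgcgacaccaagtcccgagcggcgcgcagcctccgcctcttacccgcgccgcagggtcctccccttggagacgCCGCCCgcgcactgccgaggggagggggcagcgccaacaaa
Col4a2: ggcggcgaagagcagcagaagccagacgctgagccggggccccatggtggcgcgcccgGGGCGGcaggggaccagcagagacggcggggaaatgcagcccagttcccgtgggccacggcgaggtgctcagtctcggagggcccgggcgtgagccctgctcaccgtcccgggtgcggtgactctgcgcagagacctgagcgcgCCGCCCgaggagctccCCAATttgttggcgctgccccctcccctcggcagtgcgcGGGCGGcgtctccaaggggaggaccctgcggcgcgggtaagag
The 78 bases that both windows share (chr8:11312777-11312854) held 1 GGGCGG and 0 CCAAT. Reads of the short overlap cannot be assigned without strand.

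Laminin chains assemble as trimers of an alpha, a beta and a gamma chain. For the vector over both antibodies 10 of 11 were fitted below zero, with a median log2 change of -0.08 and 3 lower at an unadjusted p under 0.05. Of all genes 7.54% were lower at that threshold. Lamb2, the beta chain of mature vessels, stood at 26.3, 27.8 and 26.9 CPM in mice 1 to 3, at 29.7, 26.9 and 25.8 in mice 4 to 6, at 24.8, 24.9 and 25.9 in mice 7 to 9, and at 23.0, 22.3 and 23.7 in mice 10 to 12. Its lowest 3 libraries were those given both treatments, and its vector change was -0.18 (SE 0.041), adjusted p = 0.0786 in the quasi-likelihood test of edgeR. Lamb1, the beta chain with the highest level per kb, stood between 41.9 and 50.1 CPM with a change of -0.02 (SE 0.047). Lamc1, the common gamma chain, was fitted at 0.04 (SE 0.050). Nid1 and Nid2, which link laminin to type IV collagen, were fitted at -0.27 (SE 0.108) and -0.09 (SE 0.109), and Hspg2, the perlecan core, at -0.26 (SE 0.101). Of the other laminin chains, Lamc3 was fitted at -0.35 (SE 0.135) and ranged from 3.03 CPM in mouse 11 to 5.78 CPM in mouse 4. Lama2, the alpha chain of astrocyte and muscle basement membranes, stood between 19.8 and 25.2 CPM and was fitted at -0.07 (SE 0.050). Lama4, an alpha chain of endothelial basement membranes, stood between 5.38 and 7.55 CPM and was fitted at -0.12 (SE 0.090). None of these passed, and Nid2 overlaps Rtraf on the opposite strand. Col18a1 and Col15a1, the multiplexins of basement membranes, were fitted at -0.31 (SE 0.118) and -0.12 (SE 0.142).

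Fibrillar collagens give tissue its tensile strength. For the vector over both antibodies 9 of 10 were fitted below zero, with a median of -0.20 and 5 lower at an unadjusted p under 0.05. Of all genes 7.54% were lower at that threshold. Col1a2, a chain of type I collagen, stood at 13.8, 11.0 and 11.8 CPM in mice 1 to 3, at 15.9, 8.47 and 13.6 in mice 4 to 6, at 9.00, 10.3 and 9.49 in mice 7 to 9, and at 6.34, 8.97 and 7.16 in mice 10 to 12. Apart from mouse 5, every eGFP mouse lay above every mVEGF-C mouse. The change was -0.55 (SE 0.127), adjusted p = 0.0755 in the quasi-likelihood test of edgeR, and without mice 5 and 6 Col1a2 passed together with Col8a2, Col9a2 and Lamb2 in addition to Timp2 and Col23a1. Col11a1 was the exception among the fibrillar genes, at 0.17 (SE 0.107), and stood highest in mice 7 to 9 (5.42, 6.32 and 6.02 CPM). Col11a2 stood between 21.3 and 27.8 CPM and was fitted at -0.05 (SE 0.064).

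Among the collagens that decorate fibrils, Col9a2 was lowest in the mVEGF-C groups, at 4.79, 5.21 and 4.27 CPM in mice 1 to 3, 5.89, 4.24 and 4.59 in mice 4 to 6, 3.14, 4.02 and 3.62 in mice 7 to 9, and 3.34, 3.60 and 3.38 in mice 10 to 12. All mVEGF-C mice lay below all eGFP mice, yet the adjusted p for the vector change of -0.46 (SE 0.101) was 0.0662 in the quasi-likelihood test of edgeR. Col9a3, its partner in the type IX trimer, was lowest in mice 10 to 12 at 7.68, 9.62 and 9.06 CPM, while the other 9 mice held 10.1 to 12.1 CPM. Col19a1, the highest of this class per kb, stood between 18.2 and 22.2 CPM, and its vector change of 0.07 (SE 0.050) did not pass.

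Type VI collagen forms beaded filaments around cells, and its chains did not vary alike. Col6a1 ranged from 11.9 CPM in mouse 11 to 25.1 CPM in mouse 1, and per kb it exceeded Col6a2 by 4.69 to 10.56 times. Col6a3 was lowest in mouse 10 at 3.42 CPM, then in mouse 2 at 5.72 and mouse 12 at 6.28, against 8.49 to 11.6 CPM in the rest. Col6a4 ran from 0.109 CPM (mouse 1) to 3.26 CPM (mouse 4). Its chains Col6a2 and Col6a5 were fitted at -0.13 (SE 0.099) and -0.12 (SE 0.204) for the vector.

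Short-chain collagens form lattices under endothelia. Col8a1 stood at 1.34, 1.58 and 1.65 CPM in mice 1 to 3, 2.98, 1.22 and 1.91 in mice 4 to 6, 0.856, 2.07 and 1.18 in mice 7 to 9, and 0.96, 1.01 and 1.17 in mice 10 to 12. Mice 10 to 12 lay below all 6 eGFP mice and overlapped mice 7 to 9. Its partner Col8a2 stood at 5.30, 4.79 and 5.16 CPM in mice 1 to 3, 7.52, 4.83 and 7.71 in mice 4 to 6, 4.97, 4.81 and 4.99 in mice 7 to 9, and 3.11, 4.49 and 3.98 in mice 10 to 12. The mice given both treatments were the lowest 3. With mAdu its vector change was -0.79 (SE 0.165), adjusted p = 0.0805 in the quasi-likelihood test of edgeR, and with mIgG it was -0.05 (SE 0.165). The difference between those changes was tested as the interaction, at -0.74 (SE 0.233), and did not pass (adjusted p = 0.61 in the quasi-likelihood test of edgeR).

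Col26a1, a collagen with short triple-helical parts, stood at 1.60, 1.91 and 1.82 CPM in mice 1 to 3, 2.01, 1.18 and 2.56 in mice 4 to 6, 1.55, 1.55 and 1.56 in mice 7 to 9, and 1.27, 1.17 and 1.65 in mice 10 to 12. Its groups overlapped, and the vector change of -0.33 (SE 0.167) did not pass.

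The remaining secreted genes ranged from the low Bgn to the abundant Sparc. Dcn, a proteoglycan that binds collagen fibrils, stood at 77.7, 51.1 and 67.6 CPM in mice 1 to 3, at 85.7, 78.6 and 83.1 in mice 4 to 6, at 75.0, 24.2 and 50.8 in mice 7 to 9, and at 68.7, 49.4 and 64.3 in mice 10 to 12. Mouse 8 lay far below the other 11, and the groups overlapped except that mice 4 to 6 stood above all others. Lum (lumican) was also lowest in mouse 8 at 2.27 CPM, and Bgn (biglycan) was fitted at -0.25 (SE 0.126) for the vector. Sparc stood between 123 and 144 CPM and Fn1, which links matrix to integrins, between 24.1 and 31.9 CPM. Their vector changes were -0.09 (SE 0.030) and -0.07 (SE 0.059), and neither passed.

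**Figure D4:**
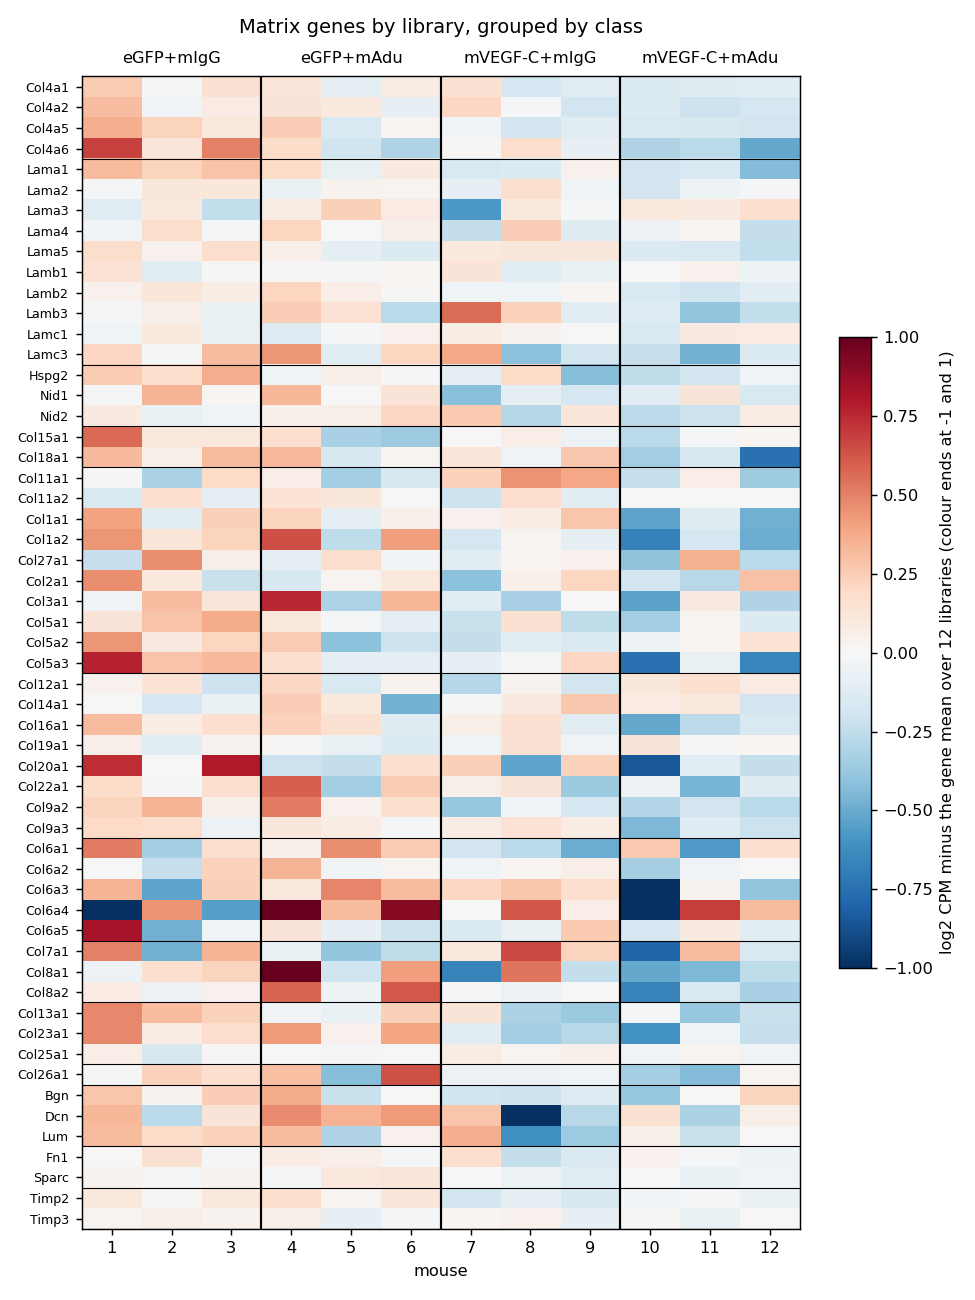
Log2 CPM of 56 of the 57 matrix genes in each mouse, minus the mean of the gene over 12 libraries (red above, blue below, colour ends at -1 and 1), with genes ordered by class and mice by group. Most rows are redder in mice 1 to 4 and bluer in mice 10 to 12, and Col6a4 and Dcn have single extreme libraries.

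mAdu was compared with mIgG within each vector and over both. With eGFP, 0 of the 57 genes passed in edgeR, beside 0.0336% of all genes. At an unadjusted p under 0.05 there were 7 lower and 3 higher (17.5%), where 9.21% of all genes passed in either direction. DESeq2 called 0, beside 0.496% of all genes, and limma-voom called 4, of which 2 were lower and 2 higher, beside 3.41%. The median change was -0.02 with 29 of 57 (50.9%) below zero, where 50.8% of all genes were. With mVEGF-C, 0 of the 57 passed in edgeR, beside 0.208% of all genes, and 10 lower and 2 higher genes (21.1%) had an unadjusted p under 0.05, where 12.7% of all genes did. DESeq2 called 0, beside 0.847% of all genes, and limma-voom 8, 7 of them lower, beside 8.29%. Over both vectors 0 of the 57 passed in edgeR, beside 0.571% of all genes, 11 were lower and 3 higher (24.6%) at an unadjusted p under 0.05, where 15.5% of all genes were. There DESeq2 called 0, beside 1.54% of all genes, and limma-voom 11, beside 11.3%. Fitted changes were below zero in 42 of the 57 (73.7%, median -0.09) with mVEGF-C, where 49.5% of all genes were. Over both vectors they were below zero in 41 (71.9%, median -0.05), where 50.7% of all genes were.

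The smallest adjusted p for the antibody over both vectors belonged to Lama5, the alpha chain of mature vessel laminin. It stood at 8.35, 7.62 and 8.36 CPM in mice 1 to 3 and 7.90, 7.99 and 8.01 in mice 7 to 9 with mIgG, and at 7.66, 6.89 and 6.70 in mice 4 to 6 and 6.72, 6.63 and 6.20 in mice 10 to 12 with mAdu. Only mouse 4 of the mAdu mice exceeded the lowest mIgG mouse. The change was -0.24 (SE 0.062), adjusted p = 0.0814 in the quasi-likelihood test of edgeR.

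Whether the effect of the antibody differed between the vectors was tested as an interaction, and 0 of the 57 genes passed in edgeR, beside 0.0134% of all genes. DESeq2 and limma-voom also called 0, beside 0.0538% and 1.48% of all genes. At an unadjusted p under 0.05 there were 6 (10.5%), 5 of them lower, where 6.82% of all genes did, led by Col8a2 (above), Col6a3 at -0.90 (SE 0.330) and Col5a2 at 0.55 (SE 0.213). A larger vector effect with mAdu than with mIgG was therefore not shown for any of these genes.

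Fibroblast markers had lower fitted values beside the matrix genes. Of 17 measured markers of meningeal and perivascular fibroblasts, none of them among the 57, 16 were fitted below zero for the vector over both antibodies, with a median of -0.34 and 11 lower and 1 higher at an unadjusted p under 0.05, and 0 passed in edgeR. In that comparison 7.54% of all genes were lower at that unadjusted threshold and 0.39% were called. The retinoic acid enzyme Aldh1a2 was fitted at -0.70 (SE 0.172) and the transporters Slc13a4 and Slc6a13 at -0.70 (SE 0.153) and -0.66 (SE 0.175), and for the combined treatment Slc13a4 fell by 0.96 on the log2 scale (SE 0.219, adjusted p = 0.0375 in the quasi-likelihood test of edgeR). Cdh11, the most abundant of the list at 138 CPM, was fitted at 0.10. The summed level ran from 280 to 287 CPM in mice 1 to 3, from 250 to 297 in mice 4 to 6, from 251 to 272 in mice 7 to 9 and from 255 to 266 in mice 10 to 12, and no marker of the list was at 0 in a library. Omd, Foxc2 and Asgr1 of that list were not analysed here.

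Mean centred log2 levels of these fibroblast markers were 0.28, 0.18 and 0.20 in mice 1 to 3, 0.51, -0.35 and 0.22 in mice 4 to 6, -0.03, -0.13 and -0.15 in mice 7 to 9, and -0.30, -0.13 and -0.29 in mice 10 to 12. Those of the 57 matrix genes were 0.14, 0.05 and 0.11, then 0.22, -0.03 and 0.08, then -0.04, -0.01 and -0.05, and then -0.25, -0.08 and -0.13. Mouse 4 was the highest in both and mouse 5 the lowest eGFP mouse in both. In these bulk libraries fewer cells of a type and less RNA per cell cannot be told apart, and how much tissue of the meninges each dissection held was not measured. With the fibroblast marker level as a covariate, the median change of the 57 genes for the vector was -0.09 in place of -0.17, that for the combined treatment -0.10 in place of -0.27, and 0 of the 57 passed in edgeR in either comparison. Calls over all genes also fell, from 58 to 5 for the vector and from 324 to 40 for the combined treatment. The marker level had group means of 0.22, 0.13, -0.11 and -0.24 in the group order given above. It differed with the vector, so this fit cannot tell the 2 apart.

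**Figure D5:**
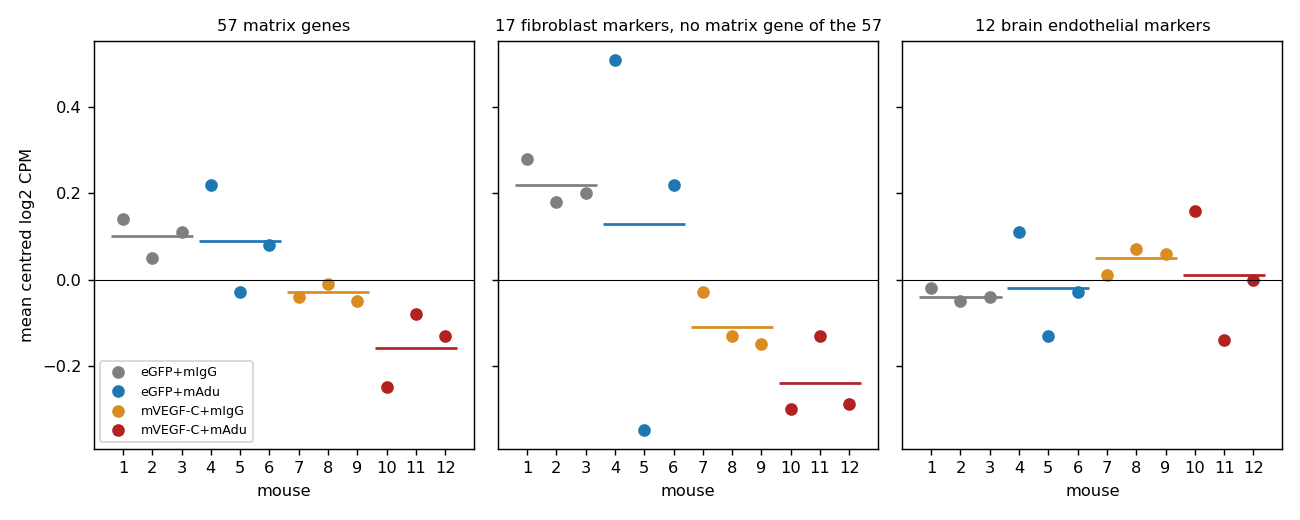
Mean centred log2 CPM per mouse (points, coloured by group, lines at group means) of the 57 matrix genes, of 17 fibroblast markers that are not among them, and of 12 brain endothelial markers. The first 2 panels are higher in most eGFP mice than in the mVEGF-C mice, with mouse 5 low, while the endothelial markers stay between -0.14 and 0.16.

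The matrix genes differed in how closely they followed the fibroblast markers. Pearson's r over the 12 libraries, given only as a description because the libraries share groups and dissection, exceeded 0.5 in 30 of the 57 genes (52.6%) and in 12.8% of all genes. It was highest for Col1a2 (0.93), Col4a5 (0.89), Col3a1 (0.86), Col23a1 (0.82) and Lama1 (0.81). It was near zero or negative for Col25a1 (-0.01), Col19a1 (-0.21), Lamc1 (-0.22) and Lama3 (-0.26). Over the 8 libraries other than mice 3, 6, 9 and 12, r exceeded 0.5 in 30 genes as well. With the markers of pericytes and smooth muscle r exceeded 0.5 in 18 of the 57 (31.6%) and in 12.2% of all genes, and it was higher than with the fibroblast markers in 22. Among these were Col4a1 (0.81 against 0.77), Lamc3 (0.79 against 0.72), Col4a2 (0.76 against 0.51) and Col4a6 (0.76 against 0.64). With the brain endothelial markers r exceeded 0.5 in 1 of the 57, Col19a1 (0.55), and was -0.08 for Col4a1 and -0.03 for Col4a2.

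Other cell types gave a mixed picture for the vector over both antibodies. The 3 measured markers of border-associated macrophages were all fitted below zero (median -0.45), with summed levels of 9.58 to 10.9 CPM in mice 1 to 3, 5.12 to 10.2 in mice 4 to 6, 6.03 to 6.67 in mice 7 to 9 and 6.39 to 7.26 in mice 10 to 12. Of 8 choroid plexus markers 6 were below zero (median -0.22), and their mean centred level was lowest in mouse 10 at -0.79. One of the 8 passed: Ttr, the thyroid hormone carrier made in the choroid plexus, ran from 30.4 to 74.2 CPM in the eGFP mice and from 14.3 to 29.1 in the mVEGF-C mice, without overlap (log2 change -1.39, SE 0.169, adjusted p = 0.00319 in the quasi-likelihood test of edgeR). Of 11 markers of pericytes and smooth muscle 7 were below zero, with a median of -0.09. Brain endothelial markers lay mostly above zero, with 3 of 12 below and a median of 0.08, and astrocyte markers had a median of -0.01. All 6 striatal markers were below zero (median -0.15), as were 5 of 6 of oligodendrocyte precursors (-0.1) and 4 of 5 of the arachnoid barrier (-0.14). Below zero were also 5 of 7 microglial markers (-0.03), 6 of 12 of hippocampal pyramidal and granule cells, and 2 of 7 of inhibitory neurons (0.01). No marker in the lists from striatum to inhibitory neurons passed. All 7 oligodendrocyte markers were above zero (median 0.09), and Mobp, of myelin, passed as higher at 0.29 (SE 0.043, adjusted p = 0.0116 in the quasi-likelihood test of edgeR), with 611 to 658 CPM in mice 7 to 9 and 405 to 512 CPM in the other 9. For the combined treatment Ttr (-1.62, SE 0.246), the smooth muscle gene Tagln (-1.09, SE 0.217) and the astrocyte gene Aldh1l1 (-0.21, SE 0.051) passed as lower. Without mice 3, 6, 9 and 12, 0 of all genes passed for the vector and 2 for the combined treatment. The part of these other cell types in the matrix result was not tested.

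Genes that make, cut or bind matrix had fitted changes on both sides of zero. For the vector over both antibodies 0 genes passed in edgeR in any of 5 lists: of 24 genes for folding and crosslinking collagen 3 were lower and 1 higher at an unadjusted p under 0.05 (median -0.01), of 18 proteases and inhibitors 0 and 1 (median 0.01), of 18 matrix receptors 1 and 2 (median -0.01), of 15 genes of the hyaluronan and perineuronal net matrix 1 and 1 (median -0.05), and of 17 genes of TGF-beta signalling 2 and 2 (median -0.01). In that comparison 7.54% of all genes were lower at that unadjusted threshold and 0.39% were called. For the combined treatment 4 of these 92 genes (4.35%) passed, 3 lower and 1 higher, beside 2.18% of all genes. None of these 4 passed without mice 3, 6, 9 and 12 or without mouse 12, and Bmp1, Ltbp3 and P4ha1 did not pass without mouse 1 or 3 either. Single mice also ended the calls of Bmp1 (mouse 10), Ltbp3 (mouse 6, 9 or 10) and P4ha1 (mouse 11). Tgm2, a transglutaminase that crosslinks matrix proteins, stood at 14.2 ± 1.07 CPM in the double control and 9.97 ± 0.0835 CPM with both treatments (SD, n = 3), and fell with a log2 change of -0.51 (SE 0.084), adjusted p = 0.0101 in the quasi-likelihood test of edgeR. Bmp1, which trims procollagen, fell from 30.6 ± 3.27 to 23.4 ± 1.12 CPM (log2 change -0.39, SE 0.073, adjusted p = 0.0181 by the same test of edgeR). Ltbp3, which binds latent TGF-beta, fell from 8.33 ± 0.578 to 6.24 ± 0.505 CPM (log2 change -0.42, SE 0.093, adjusted p = 0.0328 by the same test of edgeR). P4ha1, a subunit of collagen prolyl hydroxylase, rose from 63.5 ± 2.53 to 78.0 ± 8.00 CPM (log2 change 0.30, SE 0.061, adjusted p = 0.0262 by the same test of edgeR). Tgm2 also fell with the antibody over both vectors, by 0.29 on the log2 scale (SE 0.059, adjusted p = 0.0429 in the quasi-likelihood test of edgeR). That call was lost without mice 3, 6, 9 and 12 (adjusted p = 0.835 by the same test of edgeR) and without mouse 1, 2, 3, 5, 6, 9, 10, 11 or 12. In the comparisons of 1 treatment within 1 arm of the other, the genes with the smallest p in these lists did not pass. With the antibody these included the laminin receptor chains Itga7 (with eGFP, log2 change -0.29, SE 0.081) and Itgb4 (with mVEGF-C, -0.29, SE 0.093), the membrane protease Mmp14 (with eGFP, 0.24, SE 0.087), its inhibitor Reck (with mVEGF-C, -0.42, SE 0.140) and the hyaluronan link protein Hapln2 (with mVEGF-C, -0.36, SE 0.105). With the vector they included the matricellular protein Ccn1 (with mIgG, 0.51, SE 0.156) and the neural proteoglycan Cspg5 (with mAdu, -0.16, SE 0.043).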

How the data were processed

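RNA of 12 mice (PicoPure extraction and linear amplification, per the labels' protocols) gave 1 library each. The authors deposited unnormalized counts of reads per gene. The submitters' processing notes name STAR, Subread with featureCounts, FastQC, Trim Galore, edgeR and genome build mm10. The sources used here do not give their versions, the annotation, the strand setting or the handling of reads that map to several places.

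Symbols, exon lengths and coordinates came from GENCODE M21 on GRCm38 (14797 of 14881 identifiers named), and start site windows from RefSeq on GRCm38.p6. The fit used edgeR 4.0.16 (R 4.3.3): TMM scaling, 1 mean per group, all 12 libraries in 1 model, two-sided quasi-likelihood tests of 8 contrasts, and Benjamini-Hochberg adjustment over all genes. filterByExpr removed 0 genes, and the common biological coefficient of variation was 5.16%. CPM are counts per 1000000 of the TMM-scaled total, and list levels are means of log2 CPM (prior count 2) centred per gene. Counting precision refers to reads and not to molecules.

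Alternatives were DESeq2 1.42.0 size factors and Wald test, limma 3.58.1 voom with quality weights, no filter, only the groups compared, the fibroblast marker level as covariate, and libraries left out. Removal of GC and length trends was added after seeing the data. The genes and lists were chosen with earlier results of these data known. Genes named are those that passed, the 2 highest per kb of each class, the 3 with the smallest p in each comparison, and Col25a1, Col4a1, Col4a2, Fn1, Sparc and Timp3, along with pathway genes that passed or had the smallest p. Other genes were named after their values were seen. The values of 1 of the 57 genes are not reported here, and it enters only the counts and medians.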

Additional observations from a re-analysis of the deposited data

How the results depend on the processing

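The member counts for the combined treatment and for the vector over both antibodies depended most on the settings. For the combined treatment (4 genes), 0 passed with the fibroblast marker level as covariate, with GC and length trends removed or without mice 3, 6, 9 and 12, 8 passed by DESeq2, 12 with only the groups compared and 22 by limma-voom, and leaving out 1 mouse gave 0 to 13 (0 without mouse 1, 3, 10 or 12). For the vector over both antibodies (2 genes), 0 passed with that covariate or without mice 3, 6, 9 and 12, 4 by DESeq2, 6 without mice 5 and 6, 24 by limma-voom, and 0 to 5 with 1 mouse left out (0 without mouse 1, 3, 4, 6, 9 or 12). For the vector with mAdu (0 genes), 1 passed with only the groups compared (Dcn), 2 without mice 5 and 6, 3 by DESeq2, 11 by limma-voom and 0 to 3 with 1 mouse left out (3 without mouse 5). For the vector with mIgG (0 genes), 1 passed by DESeq2 and 9 by limma-voom. For the antibody, where 0 passed, limma-voom called 4 with eGFP, 8 with mVEGF-C and 11 over both vectors, and leaving out 1 mouse gave 0 to 1 over both (1 gene without mouse 8 and 1 without mouse 11). Over all genes limma-voom called 1789 for the vector and 2660 for the combined treatment, against 58 and 324 by edgeR. DESeq2 called 151 and 455 of all genes, and the fibroblast covariate left 5 and 40. With only the groups compared, 610 of all genes passed for the combined treatment and 62 for the vector with mAdu. Without mouse 5, 110 of all genes passed for the vector with mAdu. The member counts therefore moved along with the calls over all genes.

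The median change of the 57 genes moved beyond the spread within groups only with the fibroblast covariate among the settings run, to -0.087 (vector over both antibodies), -0.121 (vector with mAdu) and -0.100 (combined treatment). With 1 mouse left out it stayed between -0.201 and -0.151 for the vector and between -0.327 and -0.204 for the combined treatment. Single vector changes over both antibodies were followed across settings only for genes named by the rule for that comparison, not for all 57. Among the genes followed, they crossed zero in 5 (main values -0.03 for Timp3, -0.02 for Lamb1, -0.25 for Lum, -0.12 for Col15a1 and -0.05 for Col11a2). With the covariate Timp3 stood at 0.02, Lamb1 at 0.02, Lum at 0.03 and Col15a1 at 0.12. With GC and length trends removed Col11a2 stood at 0.03. Lamb1 also stood at 0.01 without mice 3, 6, 9 and 12, and between -0.06 and 0.01 with 1 mouse left out (0.00 without mouse 8, 0.01 without mouse 1). The causes were not tested. No paired analysis was possible because the sample numbers 1 to 12 differ between groups. Depth limits the genes with few reads, such as Col6a4 with 3 reads in mouse 1, and 3 mice per group limit the rest.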
